A study of Mus musculus with 12 samples.

Results

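The comparison described here is the interaction of genotype and differentiation: the difference between *Snap29* knockout (KO) and wild-type (WT) cells after 14 days of differentiation, minus the same difference in undifferentiated embryonic stem cells (ESCs, day 0). It was computed on log2(FPKM + 0.1), where FPKM is the number of fragments scaled to gene length in kilobases and to library size, over all 12 RNA-seq libraries of the series. The genes were those with at least 1 FPKM in at least 3 of the 12 libraries, which left 14110 of the 55471 genes in the tables. An interaction above 0 means that KO cells stood higher, relative to WT cells, at day 14 than at day 0, and an interaction below 0 means that they stood lower. A gene was called when its adjusted p was under 0.05 in limma, with Benjamini-Hochberg adjustment over the 14110 genes, and log2 values are given with their standard error (SE).

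All cells were of J1, a mouse ESC line of strain 129S4/SvJae. The 4 groups, with 3 libraries each, were WT and KO cells at day 0, grown on gelatin with leukemia inhibitory factor (LIF), and WT and KO cells at day 14, cultured without LIF for 3 days as hanging drops, in which ESCs aggregate into embryoid bodies, and for 11 days on plates. The KO cells were made with Cas9 aimed at exon 2 of *Snap29*, and the study took 1 clone, with a 1 bp insertion, to transcriptome analysis, so genotype and clone cannot be told apart. The study names this clone for the ESC libraries and does not name the clone of the day 14 libraries. Cells were trypsinized before RNA extraction, the day 14 wells held many embryoid bodies each, and whether replicates were separate cultures is not stated, so the p values measure the spread between these libraries only.

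*Snap29* encodes a SNARE protein, one of the proteins that bring membranes together and let vesicles, autophagosomes and lysosomes fuse. ESCs hold their undifferentiated state through a network of transcription factors, and embryoid bodies give rise to cells of many lineages, among them muscle, vessel, blood, epithelium and, at times, cells with placental genes. An interaction asks more than a comparison within 1 day does: a gene that a clone carries high or low by the same amount on both days has an interaction near 0, and a gene whose KO difference is unequal between the days stands out. A gene with no fragments on 1 day can stand out as well, since no KO difference can be measured then.

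The libraries held 16638790 to 19226488 assigned fragments, so a gene near 0.1 FPKM can rest on a few fragments. Replicates were closer at day 0 than at day 14: the median SD over genes on the log2 scale was 0.092 in WT and 0.101 in KO cells at day 0, and 0.226 and 0.148 at day 14. Replicate 3 of day 14 WT stood apart from the other libraries of its group and lay nearer the KO libraries, at −6.18 on the second principal component against −35.78 and −50.6 for the other WT libraries and 19.3 to 40.01 for KO. List counts that moved by more than 1.5 times when it was left out are given with both values.

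The target of the knockout was itself called for the interaction. *Snap29* (chromosome 16) measured 5.87, 6.59 and 5.51 FPKM in WT against 0.611, 0.415 and 0.657 FPKM in KO libraries at day 0, and 9.22, 9.88 and 8.09 FPKM in WT against 2.31, 1.87 and 1.88 FPKM in KO libraries at day 14. The KO libraries lay below every WT library on both days, but by less at day 14 (KO effect −3.22 at day 0 and −2.11 at day 14, interaction 1.11, SE 0.22, adjusted p = 0.00994). On TPM, in which FPKM is rescaled to the same sum in every library, it was not called (adjusted p = 0.0628). *Atrx*, an X-linked chromatin remodeller, was near absent from KO libraries on both days and had no interaction past the test (0.03, 95% interval −0.74 to 0.79, adjusted p = 0.97). Differences between these KO and WT cells can therefore not be assigned to *Snap29* alone, whichever day they belong to.

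Of the 14110 genes, 1692 (12%) were called for the interaction. Of these, 1044 (7.4%) had a higher and 648 (4.59%) a lower interaction, with medians of 0.76 and −0.98, against a median of 0.04 over all genes tested. A difference of at least 2-fold was present in 360 of the higher and 311 of the lower genes, and one of at least 4-fold in 74 and 78. The scaling of the libraries bears on this split. The sum of FPKM over genes was 317269 to 334228 in WT against 351273 to 367929 in KO libraries at day 14. At day 0 it was 357734, 352124 and 425870 in WT against 337991, 368078 and 338896 in KO libraries. TPM removes the differences of both days. With it the median of all genes moved to −0.22 and the calls were 274 higher and 980 lower. Named genes whose higher interaction was not called on TPM are given with that adjusted p. The counts of all gene lists below are to be read against the shares of 7.4% higher and 4.59% lower over all genes.

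In the same fit, 2204 genes (15.6%) differed between KO and WT at day 0, 1125 (7.97%) higher and 1079 (7.65%) lower in KO, and 2454 (17.4%) at day 14, 1546 (11%) higher and 908 (6.44%) lower. The interaction sorted into 4 broad patterns. At 378 called genes KO cells were lower at day 0 only, and at 277 they were higher at day 0 only, so that the difference was no longer past the test at day 14. At 403 genes KO cells were higher at day 14 only, and at 242 lower at day 14 only. At 147 genes KO differed on both days in opposite directions, 110 from lower to higher and 37 from higher to lower. A further 63 differed in 1 direction on both days by unequal amounts, and 182 passed on neither day alone. The fit over 12 libraries shares 1 spread between a tight day 0 and a looser day 14. With each day fitted alone, an alternative added after seeing the data, the counts in the same order were 590, 390, 123, 86, 32 and 13, then 41, and 417 on neither day. Differences past the test at day 0 only formed the larger patterns in that version. With the looser spread of day 14 a difference of the same size passes less often there. These counts therefore do not show that the day 0 differences were gone at day 14.

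**Figure D1:**
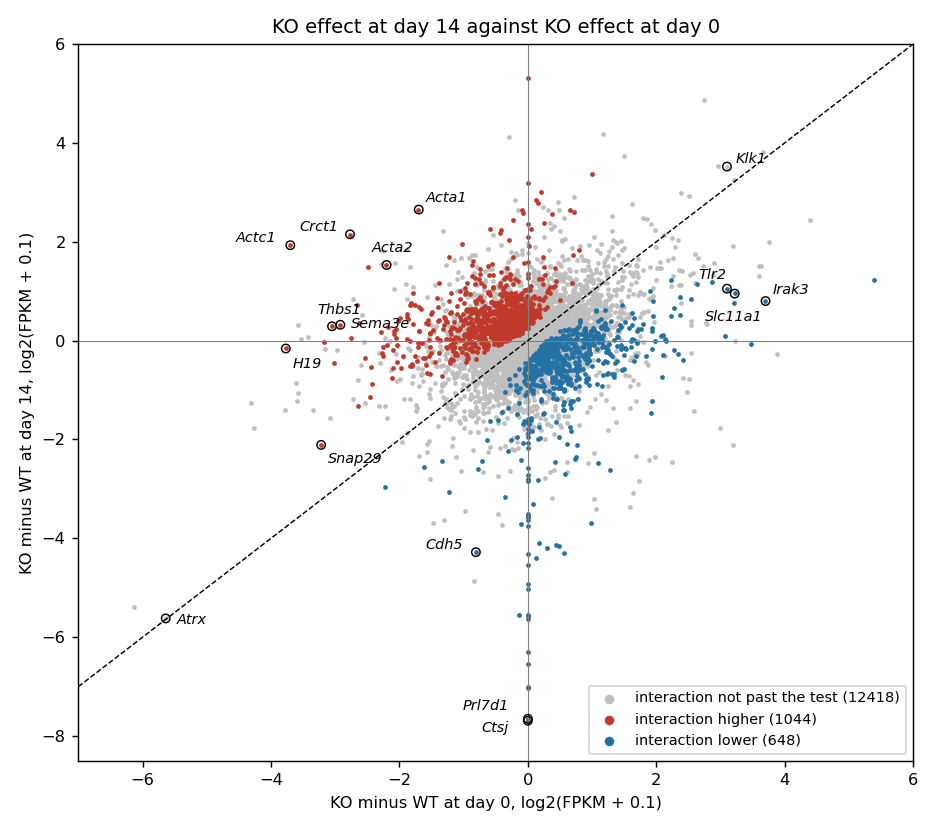
KO effect at day 14 (vertical axis) against KO effect at day 0 (horizontal axis), both as KO minus WT on log2(FPKM + 0.1), for the 14110 genes tested. Red and blue points are the 1044 and 648 genes with a higher and a lower interaction, grey points the rest, and the dashed line marks an equal effect on both days. *Atrx* and *Klk1* sit close to the line, the actin genes *Actc1*, *Acta1* and *Acta2* at the upper left, and *Ctsj* and *Prl7d1* at the bottom, with no day 0 effect to measure.

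Seen as change with differentiation, the interaction is the change from day 0 to day 14 in KO minus that in WT. Of the 1692 called genes, 602 rose in both genotypes and 319 fell in both, by unequal amounts. A further 175 rose past the test in KO alone, 129 in WT alone, 125 fell in KO alone and 209 in WT alone. The direction itself was opposite at 133 genes, of which 84 fell in WT and rose in KO and 49 did the reverse. Genes at or above 1 FPKM at day 14 only were called at 14.2% (218 of 1536), against 12.1% of genes at that level on both days (1418 of 11691) and 6.68% of those at that level at day 0 only (53 of 793).

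Among the highest interactions were those of 3 actin genes of muscle, and *Actc1* had the highest of all genes tested. Actins polymerize into the filaments of the cytoskeleton and, as the α-actins encoded by *Actc1* (heart), *Acta1* (skeletal muscle) and *Acta2* (smooth muscle), into the thin filaments that myosin pulls. In many cells these genes are under serum response factor (SRF), a transcription factor that binds a short A/T-rich element called the CArG box and whose cofactors sense the pool of free actin. All 3 genes were lower in KO than in WT cells at day 0 and higher at day 14, without overlap between the libraries of the genotypes on either day.

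The 250 bases before the RefSeq start site of each of these genes are shown because the genes move together, with matches to the CArG box in capitals, in the GRCm38.p6 assembly and read 5′ to 3′ on the minus strand, on which all 3 lie. The windows are chr2:114052876-114053125 for *Actc1*, chr8:123894776-123895025 for *Acta1* and chr19:34255374-34255623 for *Acta2*.
Actc1: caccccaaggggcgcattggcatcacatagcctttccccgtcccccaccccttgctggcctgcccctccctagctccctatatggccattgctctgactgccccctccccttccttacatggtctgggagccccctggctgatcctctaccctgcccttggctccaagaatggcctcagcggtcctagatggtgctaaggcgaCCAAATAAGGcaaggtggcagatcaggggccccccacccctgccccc
Acta1: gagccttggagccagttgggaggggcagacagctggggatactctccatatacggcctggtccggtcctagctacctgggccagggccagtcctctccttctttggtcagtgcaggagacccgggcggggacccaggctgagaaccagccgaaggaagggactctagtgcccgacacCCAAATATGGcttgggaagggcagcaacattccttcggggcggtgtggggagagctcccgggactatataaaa
Acta2: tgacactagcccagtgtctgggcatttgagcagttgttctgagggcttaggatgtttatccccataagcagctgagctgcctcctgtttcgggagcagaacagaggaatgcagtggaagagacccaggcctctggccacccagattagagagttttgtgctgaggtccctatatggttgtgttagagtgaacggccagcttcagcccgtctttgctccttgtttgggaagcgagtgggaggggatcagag
The element was searched in its strict form, CC and GG around 6 bases that are each A or T, which reads the same on both strands. It occurred once before *Actc1*, starting 47 bases before the start site, and once before *Acta1*, starting 73 bases before it, and the strict form was not in the *Acta2* window. The search leaves out sequences that differ from the strict form by a single base. The *Acta2* window holds such sequences, among them ccctatatgg and ccttgtttgg. So do the *Actc1* window (ccctatatgg) and the *Acta1* window (ccatatacgg). The absence of a strict match thus does not show that the *Acta2* window lacks the element. Of all 32851 RefSeq windows of the same length, 482 (1.47%) held a match. Promoter entries were found for 69.4% of the genes tested, too few to compare shares between called and other genes. A match is a description of the letters and was not tested as a binding site.

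*Actc1* (chr2:114047282-114053548) measured 1.80, 1.61 and 1.14 FPKM in WT against 0.0352, 0.0354 and 0 FPKM in KO libraries at day 0. At day 14 it measured 23.1, 7.86 and 41.6 FPKM in WT against 72.0, 54.7 and 108 FPKM in KO libraries. The KO mean thus went from 1.55% to 324% of the WT mean, and the interaction was 5.63 (SE 0.68, adjusted p = 0.000759). The day 0 KO values rest on 0 or 1 fragment per library, against 34 to 50 in WT, and with voom on the recovered fragments the gene was not called (7.31, adjusted p = 0.132). *Acta1* (chr8:123891769-123894751) measured 2.95, 3.59 and 3.22 FPKM in WT against 1.30, 0.746 and 0.811 FPKM in KO libraries at day 0, and 18.2, 16.1 and 53.2 FPKM in WT against 169, 145 and 159 FPKM in KO libraries at day 14. Its KO mean went from 29.3% to 540% of the WT mean (interaction 4.35, SE 0.52, adjusted p = 0.000701). *Acta2* (chr19:34241090-34255590) measured 2.99, 3.38 and 3.41 FPKM in WT against 0.726, 0.6 and 0.567 FPKM in KO libraries at day 0, and 50.5, 49.4 and 137 FPKM in WT against 225, 153 and 240 FPKM in KO libraries at day 14 (interaction 3.73, SE 0.47, adjusted p = 0.000877). In each of the 3 genes the day 14 WT library nearest to KO was replicate 3, and without it the interactions were 6.17, 4.90 and 4.22. Actin genes are much alike in sequence, so reads may be split among them in the counting.

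Of further named genes, *Cnn2*, *Srf*, *Actb*, *Tpm1*, *Cnn1* and *Anxa3* were also lower in KO at day 0, and at day 14 *Cnn2*, *Srf* and *Anxa3* were higher past the test while *Actb*, *Tpm1* and *Cnn1* were not past it. *Cnn2*, a calponin that binds actin, stood at 28.3 to 29.3 FPKM in WT against 11.3 to 13.5 FPKM in KO libraries at day 0, and at 87.1, 93.6 and 135 FPKM in WT against 165, 154 and 138 FPKM in KO libraries at day 14 (interaction 1.77, SE 0.20, adjusted p = 0.000575). *Srf* itself, at 21.3 to 23.6 FPKM in WT against 16.2 to 16.8 FPKM in KO at day 0, reached 12.4 to 14.1 FPKM in WT against 14.3 to 16.8 FPKM in KO at day 14. Its interaction was small, 0.68 (SE 0.11, adjusted p = 0.00373), and was not called on TPM (adjusted p = 0.0939). *Actb*, the β-actin of every cell and a common reference gene, lay between 850 and 926 FPKM in WT and between 612 and 671 FPKM in KO at day 0, and between 588 and 688 FPKM in WT against 706 and 783 FPKM in KO at day 14 (interaction 0.72, SE 0.11, adjusted p = 0.00246, and 0.0613 on TPM). *Tpm1*, a tropomyosin that lies along the actin filament, and *Cnn1*, the calponin of smooth muscle, were called at 1.32 (adjusted p = 0.0157) and 1.98 (adjusted p = 0.018). *Anxa3*, a membrane-binding annexin that is on neither muscle list, went from 2.11 to 2.44 FPKM in WT against 0.5 to 0.715 FPKM in KO at day 0 to 45.3 to 78.6 FPKM in WT against 91.2 to 102 FPKM in KO at day 14 (interaction 2.58, SE 0.26, adjusted p = 0.000335).

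Of 12 smooth muscle genes tested, 6 were called higher and none lower, with a median interaction of 1.22 (medians of the KO effect −0.66 at day 0 and 0.53 at day 14). Of 20 sarcomere genes, which encode the proteins of the striated contractile unit, 6 were higher and none lower, with a median of 0.97 (−0.22 at day 0 and 0.84 at day 14). At day 0 alone 4 smooth muscle genes were lower and 2 higher in KO, and 2 sarcomere genes lower and none higher. The smooth muscle genes that were higher, *Des*, the intermediate filament protein of muscle, and *Cald1*, a caldesmon, were higher on both days, with interactions of −0.10 and −0.07. At an unadjusted p under 0.05, 2 sarcomere genes and no smooth muscle gene were lower. *Myl1*, a myosin light chain of fast skeletal muscle, was called at 2.61 (adjusted p = 0.0337), with 0 to 2 fragments per library at day 0, so it rests on day 14. *Smyd1*, a methyltransferase of the forming sarcomere, was called at 1.79 (adjusted p = 0.0121). On TPM 4 genes of each list were higher, and without replicate 3 of day 14 WT 8 smooth muscle genes were higher, and 10 sarcomere genes higher and 3 lower. Of 10 genes for calcium handling, energy and membranes of striated muscle none was called by limma or by voom (median 0.73), 2 were higher at an unadjusted p under 0.05, and 3 were called higher without replicate 3 of day 14 WT. Among 10 cardiac and myogenic transcription factors 2 were higher and 1 lower (median 0.46). The counts were 4 and 1 without replicate 3 of day 14 WT and none and 2 on TPM. The lower one was *Hand2*, a factor of the heart and of the limb, at −2.16 (adjusted p = 0.0153). *Hand2* reached 1 FPKM in the day 14 WT libraries alone, so the filter chose for that direction. It was not called with voom or with a pseudocount of 0.01. Another member of this list passed the filter through the day 14 KO libraries alone.

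At day 14 the summed markers of muscle cells were higher in every KO than in every WT library, but each sum was carried by the actin gene in it. The FPKM sum of 4 skeletal muscle markers (*Myog*, *Myod1*, *Acta1* and *Ckm*) was 18.7 to 70.4 in WT against 162 to 194 in KO libraries, of which *Acta1* made up 145 to 169 in KO. That of 4 cardiomyocyte markers (*Tnnt2*, *Myh6*, *Actc1* and *Nkx2-5*) was 9.64 to 45.0 in WT against 58.4 to 115 in KO libraries, of which *Actc1* made up 54.7 to 108 in KO. That of 4 smooth muscle markers (*Acta2*, *Tagln*, *Cnn1* and *Myh11*) was 51.3 to 141 in WT against 155 to 243 in KO libraries, of which *Acta2* made up 153 to 240 in KO. Of the other markers, *Myod1*, a factor that commits cells to skeletal muscle, at 0.257 to 0.861 FPKM in WT against 1.27 to 2.37 FPKM in KO, and *Tnnt2*, the cardiac troponin T, at 0.642 to 1.99 against 2.42 to 4.56 FPKM, did not overlap between the genotypes at day 14. Neither *Myod1* nor *Tnnt2* was called for the interaction (1.93 and 1.33, adjusted p = 0.08 and 0.124 in limma). *Myod1* reached 1 FPKM in the day 14 KO libraries alone, so the filter chose for that direction. *Myog*, *Ckm*, *Myh6*, *Nkx2-5*, *Tagln*, *Cnn1* and *Myh11* overlapped. At day 0 *Myog*, *Myod1*, *Ckm*, *Tnnt2*, *Nkx2-5*, *Tagln* and *Myh11* were at or under 0.5 FPKM in every library. *Myh6*, a cardiac myosin, stood then at 1.84 to 2.02 FPKM in WT against 3.51 to 3.62 FPKM in KO, and *Cnn1* at 1.74 to 2.16 FPKM in WT against 0.502 to 0.791 FPKM in KO. The part of muscle cells in the day 14 values was not tested, since in bulk RNA more cells of a type and more RNA per cell cannot be told apart.

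**Figure D2:**
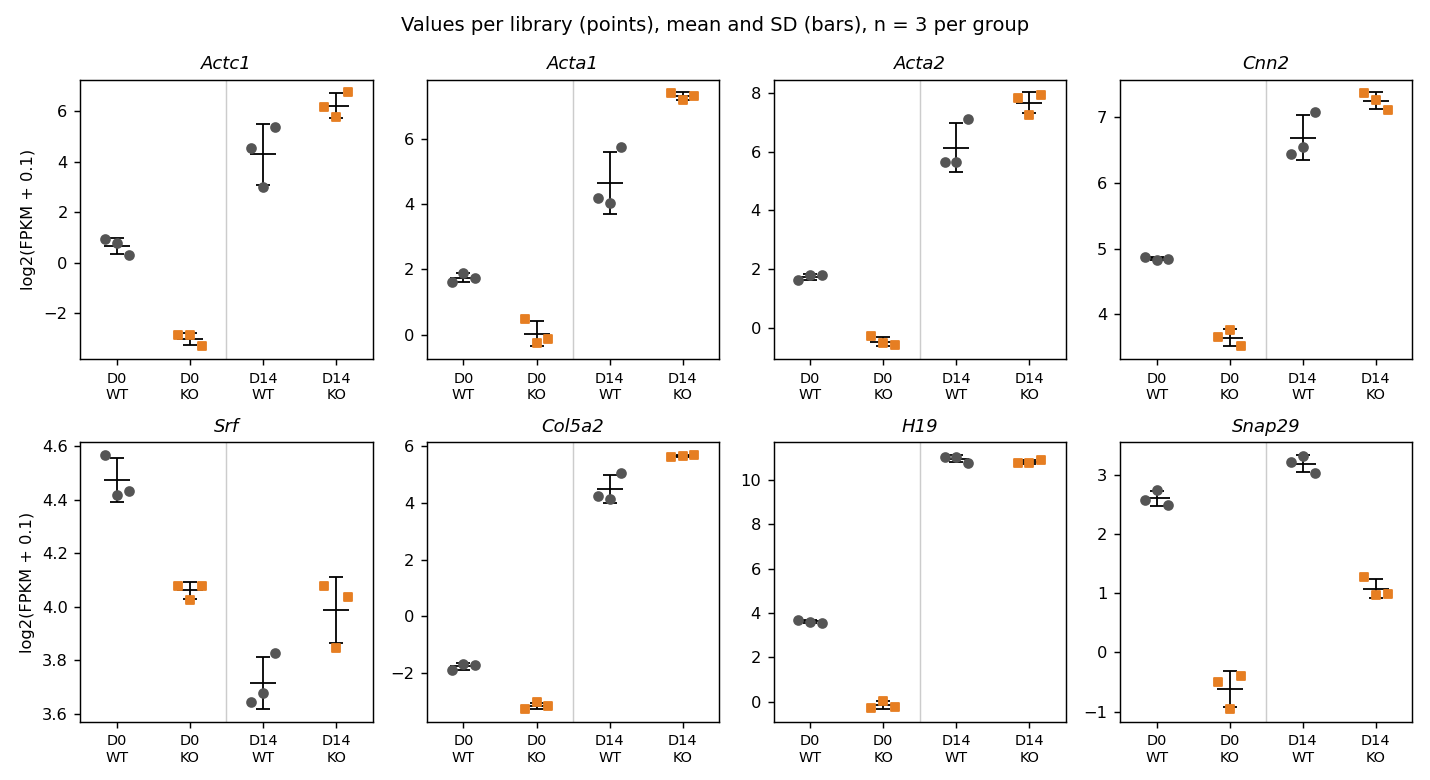
Values of 8 genes in each of the 12 libraries on log2(FPKM + 0.1), WT in grey and KO in orange, with the group mean and SD (n = 3 libraries). KO libraries lie below WT at day 0 and above WT at day 14 for *Actc1*, *Acta1*, *Acta2*, *Cnn2*, *Srf* and *Col5a2*, while *H19* differs at day 0 only and *Snap29* stays below WT on both days. Each panel has its own vertical scale.

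A pair of further genes outside muscle crossed over by a large amount. *Col5a2*, a chain of the fibrillar collagen V, measured 0.170, 0.218 and 0.204 FPKM in WT against 0.00594, 0.0239 and 0.0118 FPKM in KO libraries at day 0, which is 28 to 36 against 1 to 4 fragments. At day 14 it measured 18.7, 17.5 and 32.5 FPKM in WT against 48.5, 49.4 and 50.8 FPKM in KO libraries (interaction 2.55, SE 0.28, adjusted p = 0.000494). *Crct1*, a gene of the cornified layer of the epidermis, measured 1.10, 0.366 and 1.58 FPKM in WT against 0.0719, 0.0723 and 0 FPKM in KO libraries at day 0, and 3.31, 2.48 and 4.30 FPKM in WT against 13.4, 13.3 and 18.4 FPKM in KO libraries at day 14 (interaction 4.91, SE 0.59, adjusted p = 0.000715). The day 0 values of *Crct1* rest on 5 to 23 fragments per WT and 0 or 1 per KO library. KO lay below all WT libraries at day 0 and above all of them at day 14 in both genes. *Zfp951*, a zinc finger gene, crossed by a smaller amount, from 2.94 to 3.29 FPKM in WT against 1.71 to 1.81 FPKM in KO to 2.89 to 4.29 FPKM in WT against 6.43 to 6.76 FPKM in KO (interaction 1.62, SE 0.18, adjusted p = 0.000517).

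A second set of genes with a high interaction was lower in KO ESCs, with no difference past the test at day 14. *H19* (chr7:142575529-142578143), an imprinted noncoding RNA transcribed from the maternal allele and among the most abundant RNAs of embryonic mesoderm and endoderm, had the smallest adjusted p of the named genes. It measured 12.7, 12.1 and 11.8 FPKM in WT against 0.718, 0.931 and 0.760 FPKM in KO libraries at day 0, so KO stood at 6.59% of WT. At day 14 it measured 2130, 2140 and 1770 FPKM in WT against 1740, 1740 and 1920 FPKM in KO libraries, which overlapped (KO effect −3.77 at day 0 and −0.16 at day 14, interaction 3.62, SE 0.14, adjusted p = 4.7e-07, and 1.74e-06 on TPM). Other imprinted genes went both ways: of 23 tested, 4 were higher and 3 lower (median −0.07), against 6 and 5 without replicate 3 of day 14 WT and 4 and 5 on TPM. *Snrpn*, an imprinted splicing protein gene, was called at 1.10 (adjusted p = 0.00119), *Mirg*, a host of microRNAs in the imprinted *Dlk1*-*Dio3* region, at 1.05 (adjusted p = 0.00282), and *Impact*, a regulator of translation, at 0.85 (adjusted p = 0.000293), each lower in KO at day 0 only. *Phlda2*, which limits placental growth in the mouse, was lower in KO on both days and more so at day 14 (84.4 to 90.7 FPKM in WT against 27.9 to 28.6 FPKM in KO, then 37.1 to 56.7 and 5.84 to 9.88 FPKM, interaction −0.94, adjusted p = 0.0382).

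Genes of other functions were likewise lower in KO ESCs and not past the test at day 14. *Sema3e*, a secreted guidance cue, measured 2.57, 2.50 and 2.16 FPKM in WT against 0.270, 0.16 and 0.275 FPKM in KO libraries at day 0, and 8.6, 10 and 8.97 FPKM in WT against 10.7, 10.9 and 12.8 FPKM in KO libraries at day 14 (interaction 3.24, SE 0.21, adjusted p = 2.61e-05). The day 14 difference was not past the test although the libraries did not overlap. *Lefty1*, an antagonist of Nodal, measured 99.4 to 102 FPKM in WT against 13.8 to 16.7 FPKM in KO at day 0, and 41.7, 42.5 and 12 FPKM in WT against 21.5, 21.3 and 51.3 FPKM in KO libraries at day 14 (interaction 2.81, SE 0.63, adjusted p = 0.0176). Within each genotype 1 library of day 14 stood far from the others. *Gap43*, a growth cone protein of neurons, stood at 37.0 to 42.1 FPKM in WT against 3.44 to 6.39 FPKM in KO at day 0 and between 3.25 and 9.58 FPKM in all libraries of day 14 (interaction 2.58, SE 0.43, adjusted p = 0.00434). *Trh*, the precursor of thyrotropin-releasing hormone, stood at 255 to 264 FPKM in WT against 69.9 to 81.4 FPKM in KO at day 0, and at 6.11 to 22.8 FPKM in WT against 23.2 to 35.8 FPKM in KO at day 14, with every KO library above every WT library (interaction 2.75, SE 0.55, adjusted p = 0.00974). *Thbs1*, a matrix glycoprotein, was called at 3.34 (SE 0.51, adjusted p = 0.00282), but its day 0 KO values rest on 1 to 7 fragments, and it was not called with a pseudocount of 1 (1.29, adjusted p = 0.0949) or with voom (5.03, adjusted p = 0.13). *Mup6*, of the major urinary protein family whose members share reads, was called at 3.00 (SE 0.43, adjusted p = 0.00212).

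The lowest interactions belonged to placental genes (*Ctsj*, *Prl7d1* and *Tpbpa*), which had no fragment in ESCs. Trophoblast giant cells and spongiotrophoblast, cell types of the mouse placenta, secrete hormones of the prolactin family and cathepsin proteases from gene clusters on chromosome 13. Of 25 placental prolactin genes on the list 14 were tested, and 12 of these were called lower and none higher, with a median interaction of −4.29. The filter chose in part for that direction: 6 of the 14 reached 1 FPKM in the day 14 WT libraries alone, so they could only come out lower in KO, and the count and the median are a description of the genes that passed. For 13 of the 14 no fragment was assigned in any day 0 library, so a KO effect at day 0 could not be measured and the interaction is the day 14 difference alone. The summed FPKM of the 14 genes was 500.0, 604.7 and 426.5 in WT and 28.7, 30.4 and 34.0 in KO libraries at day 14. Of 11 placental cathepsins and other placental products 8 were lower and 1 higher, the latter *Serpinb9b*, with a median of −2.96. Of these 11, from a list of 31, 5 likewise passed the filter through the day 14 WT libraries alone. With voom 1 prolactin and 2 of the other placental genes were called lower, although their estimates kept their direction. The summed FPKM of 4 trophoblast markers (*Prl3d1*, *Prl2c2*, *Tpbpa* and *Ctsj*) was 0 in all day 0 libraries, 124 to 212 in WT against 3.85 to 9.09 in KO at day 14, so fewer such cells and less RNA per cell cannot be told apart. Paralogs in both families share reads, so the split between single genes is uncertain.

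*Ctsj* (chr13:61000179-61005959), a placental cathepsin, measured 66.5, 123 and 47.9 FPKM in WT against 0.216, 0.251 and 0.301 FPKM in KO libraries at day 14 and had no fragment at day 0 (interaction −7.69, SE 0.42, adjusted p = 1.15e-05, and 0.0966 with voom). This was the lowest interaction of all genes tested. *Prl7d1*, a prolactin-family hormone, measured 46.3, 90.9 and 23.9 FPKM in WT against 0.0543, 0.0675 and 0.383 FPKM in KO libraries at day 14 (−7.65, SE 0.71, adjusted p = 0.00022). *Prl2a1*, the most abundant of the prolactins named, measured 214, 141 and 188 FPKM in WT against 15.8, 17.8 and 10.4 FPKM in KO libraries (−3.63, SE 0.28, adjusted p = 7.36e-05). The KO mean stood at 8.12% of the WT mean for *Prl2a1* and at 0.323% for *Ctsj*, with the libraries of the genotypes apart in all 3 genes. *Prl3d1*, placental lactogen I and a giant cell marker, measured 28.9, 29.0 and 38.4 FPKM in WT against 2.06, 2.22 and 4.35 FPKM in KO libraries (−3.50, SE 0.36, adjusted p = 0.000382). *Tpbpa*, a marker of spongiotrophoblast, measured 11.0, 36.5 and 6.78 FPKM in WT against 0.0241, 0 and 0 FPKM in KO libraries (−7.03, SE 0.74, adjusted p = 0.000409). *Prl2b1* had 178, 619 and 103 fragments in WT and none in KO libraries, which is at least 95.0-fold lower with a floor of 3 fragments per library. *Ctsj*, *Prl7d1*, *Tpbpa* and *Prl2b1* reached 1 FPKM in the day 14 WT libraries alone, so they could only come out lower in KO. With voom *Prl7d1*, *Prl2a1*, *Prl3d1*, *Tpbpa* and *Prl2b1* were not called either (adjusted p = 0.219, 0.183, 0.0808, 0.217 and 0.148). Replicate 3 was the lowest WT library for *Ctsj*, *Prl7d1*, *Tpbpa* and *Prl2b1* and the highest for *Prl3d1*.

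Of 13 transcription factors of trophoblast tested, 2 were lower and none higher (median −0.31), against 12% of all genes called in either direction, and 1 was higher and 2 lower without replicate 3 of day 14 WT. With all libraries 2 were higher at an unadjusted p under 0.05. *Gata2*, which acts in giant cells, measured 0.895 to 1.32 FPKM in WT against 1.76 to 2.04 FPKM in KO at day 0, and 8.85, 9.26 and 6.20 FPKM in WT against 5.06, 6.44 and 6.23 FPKM in KO libraries at day 14 (interaction −1.17, SE 0.25, adjusted p = 0.0136). The other member called was *Phlda2*, which is not itself a transcription factor. *Serpinb9e*, a protease inhibitor gene of a placental cluster, was called at −2.18 (SE 0.32, adjusted p = 0.00218, and 0.565 with voom). It stood at 36.3 to 77.9 FPKM in WT against 10.7 to 12.6 FPKM in KO at day 14.

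Some genes of vessels and of the yolk sac were also lower in KO at day 14. These were 4 of 11 endothelial and 3 of 9 yolk sac and liver genes, with none higher, against 6.44% of all genes tested. The lists held 23 and 25 genes, and the others did not pass the filter. *Cdh5*, the cadherin of endothelial junctions, measured 21.3, 33.7 and 7.95 FPKM in WT against 0.636, 0.790 and 1.12 FPKM in KO libraries at day 14 (interaction −3.46, SE 0.61, adjusted p = 0.00547). At day 0 it had 6 to 9 fragments per WT and 0 to 2 per KO library, and with voom the interaction was −1.79 (adjusted p = 0.744). *Esam*, an adhesion molecule of endothelium, was called at −2.07 (adjusted p = 0.0254), and *Nos3*, the endothelial nitric oxide synthase, at −1.45 (adjusted p = 0.0185). *Nos3* was higher in KO at day 0 (KO effect 0.86, adjusted p = 0.029) and not past the test at day 14 (−0.58, adjusted p = 0.106). *Tek*, the receptor for angiopoietins, went the other way (1.22, SE 0.28, adjusted p = 0.019, and 0.069 on TPM). Of 11 endothelial genes 1 was higher and 3 lower (median −0.58). *Pecam1*, which ESCs also express, lay at 9.55 to 15.8 FPKM in WT against 9.67 to 12.5 FPKM in KO at day 14. *Apoa1*, a lipoprotein of yolk sac and liver, measured 9.32, 9.05 and 2.79 FPKM in WT against 0.166, 0.248 and 0.391 FPKM in KO libraries at day 14 (−4.58, SE 0.72, adjusted p = 0.00305), and it reached 1 FPKM in the day 14 WT libraries alone. Of 9 yolk sac and liver genes 1 was higher and 2 lower (median 0.10), against 2 and 3 without replicate 3 of day 14 WT, and of 3 endoderm transcription factors 1 was lower (median −0.83), *Gsc* at −2.07 (adjusted p = 0.0458), a call that held in 9 of 24 alternative settings (adjusted p 0.0105 to 0.108).

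**Figure D3:**
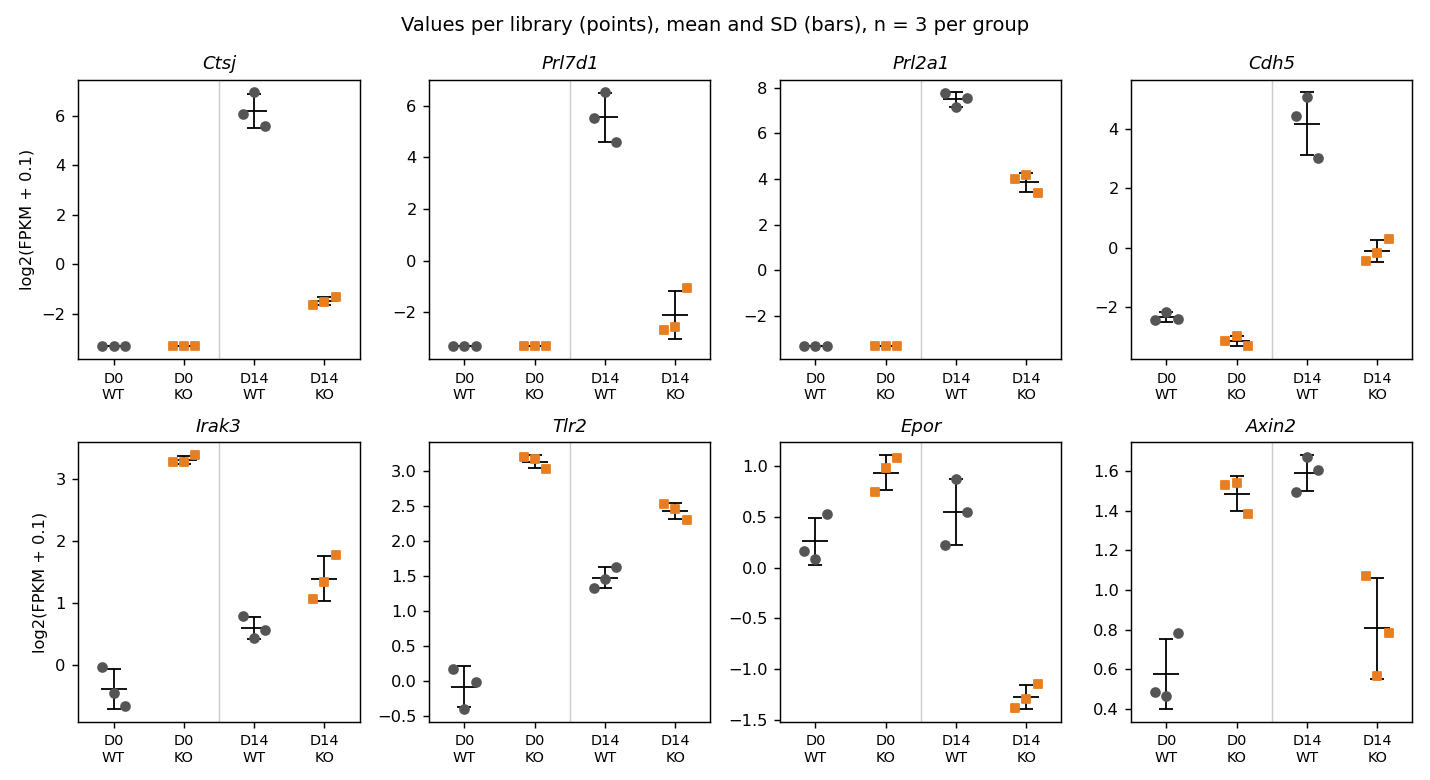
Values of 8 genes with a low interaction in each of the 12 libraries on log2(FPKM + 0.1), WT in grey and KO in orange, with the group mean and SD (n = 3 libraries). *Ctsj*, *Prl7d1*, *Prl2a1* and *Cdh5* are near or at the floor at day 0 and lower in KO at day 14. *Irak3* and *Tlr2* are much higher in KO at day 0 and less so at day 14, and *Epor* and *Axin2* go from higher to lower in KO. Each panel has its own vertical scale.

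A last group of low interactions began high in KO ESCs. *Irak3*, which dampens signalling from Toll-like receptors, measured 0.885, 0.631 and 0.532 FPKM in WT against 9.61, 9.58 and 10.4 FPKM in KO libraries at day 0, and 1.63, 1.26 and 1.38 FPKM in WT against 2.00, 2.43 and 3.34 FPKM in KO libraries at day 14. The KO mean thus came down from 1450% to 182% of WT (interaction −2.90, SE 0.28, adjusted p = 0.000294). *Tlr2*, a receptor for bacterial lipoproteins, went from 1020% to 197% (−2.26, SE 0.21, adjusted p = 0.000212), and *Slc11a1*, a metal transporter of phagocyte lysosomes, from 921% to 221% (−2.06, SE 0.23, adjusted p = 0.000497). KO libraries stayed above all WT libraries on both days at all 3 genes. The list that holds *Irak3* and *Tlr2* went both ways: of 24 genes for Toll-like signalling and the interferon response 3 were higher and 3 lower (median −0.26), and on TPM none and 5. The 3 lower ones were *Irak3*, *Tlr2* and *Stat2*. For this list and the lysosome genes below, the shares over all genes were 7.4% higher and 4.59% lower. *Stat2*, a mediator of interferon signalling, was lower in KO at day 14 only (−0.73, SE 0.14, adjusted p = 0.00884). *B2m*, the light chain of MHC class I, was called in the opposite direction (0.93, SE 0.21, adjusted p = 0.0161, and 0.0562 on TPM). Of 29 lysosome genes 1 was higher and 3 lower (median 0.15), but without replicate 3 of day 14 WT 11 were higher and 3 lower. The lower ones were *Slc11a1* and the cathepsins *Ctsh* (−1.29, adjusted p = 0.0128) and *Ctsb* (−0.42, adjusted p = 0.0254).

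Other genes crossed from higher to lower in KO. *Epor*, the erythropoietin receptor, measured 1.02, 0.962 and 1.34 FPKM in WT against 1.58, 1.87 and 2.02 FPKM in KO libraries at day 0, and 1.07, 1.73 and 1.36 FPKM in WT against 0.284, 0.308 and 0.351 FPKM in KO libraries at day 14 (interaction −2.50, SE 0.29, adjusted p = 0.000575). *Tfrc*, the transferrin receptor, was called at −1.51 (SE 0.30, adjusted p = 0.00994) without crossing: its day 0 difference was not past the test (adjusted p = 0.0736) and its day 14 libraries overlapped. *Epor* and *Tfrc* were the 2 members called lower of 5 erythroid genes, with none higher (median 0.07). *Hs3st1*, a heparan sulfate sulfotransferase, crossed from 0.0244 to 0.0780 FPKM in WT against 0.128 to 0.279 FPKM in KO to 5.71 to 8.44 FPKM in WT against 2.79 to 4.47 FPKM in KO (−1.85, SE 0.36, adjusted p = 0.00918). Its day 0 values rest on 1 to 3 fragments per WT and 5 to 11 per KO library, and with voom it was not called (adjusted p = 0.0578). *Dkkl1*, a secreted protein related to Dickkopf, crossed from 0.956 to 1.22 FPKM in WT against 1.73 to 1.96 FPKM in KO to 15.8 to 26.3 FPKM in WT against 11.5 to 13.3 FPKM in KO (−1.48, SE 0.23, adjusted p = 0.00307). The kallikrein *Klk1b22*, whose close paralogs share reads, was called at −1.54 (adjusted p = 0.00679), the zinc finger gene *Zcchc24* at −1.39 (adjusted p = 0.000503), the mitochondrial carrier *Slc25a10* at −1.28 (adjusted p = 0.00294) and the semaphorin *Sema3f* at −1.22 (adjusted p = 0.00614). At these 4 genes the libraries did not overlap on either day.

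Genes of Wnt signalling, in which secreted ligands act through Frizzled receptors and β-catenin, were called in both directions. *Axin2*, a negative regulator that the pathway itself induces, measured 1.30, 1.28 and 1.62 FPKM in WT against 2.79, 2.81 and 2.51 FPKM in KO libraries at day 0, and 2.72, 3.09 and 2.94 FPKM in WT against 2.00, 1.38 and 1.62 FPKM in KO libraries at day 14 (interaction −1.69, SE 0.20, adjusted p = 0.000721). *Ror2*, a receptor for Wnt ligands outside the β-catenin branch, stood at 1.27 to 1.74 FPKM in WT against 4.31 to 4.97 FPKM in KO at day 0 and overlapped at day 14 (−1.67, SE 0.18, adjusted p = 0.000456). The ligand *Wnt7b* crossed upwards, from 0.765 to 0.854 FPKM in WT against 0.222 to 0.324 FPKM in KO to 19.4 to 21.8 FPKM in WT against 26.6 to 29.0 FPKM in KO (1.75, SE 0.15, adjusted p = 0.000166). The receptor *Fzd7* was lower in KO on both days, by less at day 14 (0.81, SE 0.09, adjusted p = 0.000563). In all, 3 of 31 Wnt pathway genes were higher and 3 lower (median −0.20), against 5 and 8 without replicate 3 of day 14 WT. Over all genes tested 7.4% were higher and 4.59% lower, to which the counts of these pathways compare. Of 11 Hedgehog pathway genes 1 was lower (median −0.28), the coreceptor *Boc* at −1.10 (adjusted p = 0.0362), a call that held in 10 of 24 alternative settings (adjusted p 0.00102 to 0.0813). Of 28 genes of BMP, TGF-β and FGF signalling 4 were higher and 4 lower (median −0.23), against 6 and 9 without replicate 3 of day 14 WT. *Dusp4*, a phosphatase of MAP kinases, was called at 1.08 (adjusted p = 0.00282), *Id2*, an inhibitor of bHLH factors, at 1.27 (adjusted p = 0.00992), *Spry4*, a brake on receptor tyrosine kinases, at −1.14 (adjusted p = 0.00245) and *Inhbb*, an activin subunit, at −1.12 (adjusted p = 0.011).

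Pluripotency genes were called in both directions, beside shares of 7.4% higher and 4.59% lower over all genes. Of 27 naive and core genes 7 were higher and 3 lower (median 0.20), and on TPM 3 and 3. Of 12 formative and primed state genes 2 were higher and 1 lower (median 0.25), against 3 and 2 without replicate 3 of day 14 WT and 1 and 2 on TPM. *Pou5f1*, which encodes Oct4, measured 548, 526 and 551 FPKM in WT against 455, 485 and 433 FPKM in KO libraries at day 0, and 124, 98.2 and 98.8 FPKM in WT against 152, 138 and 148 FPKM in KO libraries at day 14 (interaction 0.70, SE 0.13, adjusted p = 0.00645). On TPM it was not called (adjusted p = 0.0846). *Nanog* had an interaction near 0 (−0.03, 95% interval −0.41 to 0.34, adjusted p = 0.92). *Klf5*, which supports self-renewal, was higher in KO at day 0 only, at 41.9 to 43.9 against 24.9 to 25.4 FPKM, and met WT at day 14 at 14.6 to 15.5 against 14.2 to 14.8 FPKM (−0.73, SE 0.07, adjusted p = 0.000322). *Gdf3* and *Dppa3*, genes of ESCs and germ cells, were lower in KO at day 0 only (interactions 1.70 and 1.61, adjusted p = 0.00425 and 0.00718). In the formative list *Sall2* and *Otx2* were higher at 1.59 and 1.14 and *Etv4*, a target of FGF signalling, lower at −1.26 (adjusted p = 0.00145, 0.0216 and 0.0134), of which *Otx2* was not called on TPM (adjusted p = 0.0767).

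Of 21 keratin and junction genes 9 were higher and 2 lower, with a median of 0.56, but on TPM 2 were higher and 2 lower. For this list and the matrix genes below, the shares over all genes were 7.4% higher and 4.59% lower. *Cldn6*, a claudin of tight junctions, measured 16.1 to 16.4 FPKM in WT against 7.80 to 9.15 FPKM in KO at day 0, and 98.9, 110 and 138 FPKM in WT against 193, 161 and 181 FPKM in KO libraries at day 14 (interaction 1.58, SE 0.16, adjusted p = 0.000335, and 0.000683 on TPM). *Krt18*, a keratin of simple epithelia, overlapped between the genotypes at day 0, at 8.4 to 10.8 FPKM, and reached 745 to 1180 FPKM in WT against 1580 to 1770 FPKM in KO at day 14 (1.08, SE 0.20, adjusted p = 0.00779). *Jam2*, a junction adhesion molecule, was higher in KO on both days and by less at day 14 (52.6 to 58.4 against 10.7 to 12.9 FPKM, then 20.0 to 22.2 against 8.01 to 10.7 FPKM, −0.99, SE 0.16, adjusted p = 0.00328). Of 26 collagen and other matrix genes 4 were higher and 4 lower (median −0.39), against 5 and 9 without replicate 3 of day 14 WT. *Col18a1*, of basement membranes, was lower in KO at day 0 only (1.32, SE 0.16, adjusted p = 0.000815), and *Vcan*, a large proteoglycan, at day 14 only (−1.03, SE 0.20, adjusted p = 0.00915).

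Of 37 autophagy genes, which build and clear autophagosomes, 2 were higher and 1 lower (median 0.01), against 12% of all genes called in either direction, and 8 were higher and 2 lower without replicate 3 of day 14 WT. *Tfe3*, a transcription factor for lysosome and autophagy genes, stood at 9.98 to 10.4 FPKM in WT against 5.42 to 5.70 FPKM in KO at day 0 and at 6.14 to 8 FPKM in WT against 7 to 7.9 FPKM in KO at day 14 (interaction 0.96, SE 0.14, adjusted p = 0.00194). *Sqstm1*, the p62 cargo receptor, overlapped at day 0 at 34.9 to 39.9 FPKM and stood at 154, 156 and 200 FPKM in WT against 265, 255 and 255 FPKM in KO libraries at day 14 (0.55, SE 0.13, adjusted p = 0.0198, and 0.165 on TPM). *Wipi1*, which acts at forming autophagosomes, crossed from 1.98 to 2.40 FPKM in WT against 2.94 to 3.34 FPKM in KO to 13.0 to 17.7 FPKM in WT against 10.5 to 11.2 FPKM in KO (−1.02, SE 0.16, adjusted p = 0.00359). Of 34 SNARE genes 4 were higher and none lower (median 0.11), but on TPM none was higher and 1 lower, and without replicate 3 of day 14 WT 10 were higher and 2 lower. The syntaxins *Stx11*, *Stx3*, *Stx6* and *Stx5a* made up the 4, at 1.06, 0.71, 0.53 and 0.43 (adjusted p = 0.0213, 0.00264, 0.037 and 0.0371), none of which was called on TPM (adjusted p = 0.0926, 0.0879, 0.326 and 0.457). Of the other members of the SNAP family, *Snap23* had an interaction of 0.02 (95% interval −0.18 to 0.22) and *Snap47* of 0.28 (−0.27 to 0.83), neither past the test. *Snap47* was called with library weights and without replicate 3 of day 14 WT (0.52, adjusted p = 0.0289).

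Of 16 ATF4 and ER stress genes 5 were higher and 1 lower (median 0.28), on TPM 1 and 1, and without replicate 3 of day 14 WT 9 and 1. For this list and those that follow, the shares over all genes were 7.4% higher and 4.59% lower. *Trib3*, a pseudokinase of the ATF4 response, overlapped at day 0 at 14.9 to 16.8 FPKM and stood at 2.95, 3.21 and 5.37 FPKM in WT against 7.17 to 8.12 FPKM in KO at day 14 (interaction 1.06, SE 0.25, adjusted p = 0.0198, and 0.0629 on TPM). *Hspa5*, the ER chaperone BiP, was called at 0.52 (adjusted p = 0.00779, and 0.197 on TPM). Of 14 immediate-early and heat shock genes 1 was higher, *Jun* (0.68, adjusted p = 0.0351, and 0.121 on TPM, list median 0.28), and without replicate 3 of day 14 WT 6 were higher. Of 27 glycolysis and hypoxia-responsive genes 3 were lower and none higher (median −0.26): *Pfkp*, *Hk1* and *Hk2*, which encode phosphofructokinase and hexokinases of early glycolysis, at −1.21, −0.97 and −0.57 (adjusted p = 0.0448, 0.013 and 0.0104). Without replicate 3 of day 14 WT 1 was higher and 8 were lower. Of 20 cholesterol synthesis genes 2 were lower and none higher (median −0.44), and 12 were lower without replicate 3 of day 14 WT. Of 31 cell cycle genes 2 were higher and 1 lower (median 0.03), against 5 and 6 without replicate 3 of day 14 WT. *Ccnd2*, cyclin D2, was lower in KO on both days, by less at day 14 (1.32, SE 0.32, adjusted p = 0.0244, and 0.073 on TPM). None of 15 mitochondrial genome transcripts was called by limma or by voom (median 0.16), with 1 higher at an unadjusted p under 0.05. Of 15 housekeeping genes 2 were higher, *Actb* and *B2m* (median 0.16), none on TPM, and 3 were higher and 1 lower without replicate 3 of day 14 WT. Of 14 neural genes 4 were higher and 1 lower (median 0.04), against 4 and 4 without replicate 3 of day 14 WT, among them *Foxj1*, a regulator of motile cilia, at 2.17 (adjusted p = 0.00745) and *Sox11* at −1.03 (adjusted p = 0.00811). Of 5 macrophage genes 1 was higher, *Cd68* at 1.11 (adjusted p = 0.0307, and 0.087 on TPM), and the list median was 0.23.

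**Figure D4:**
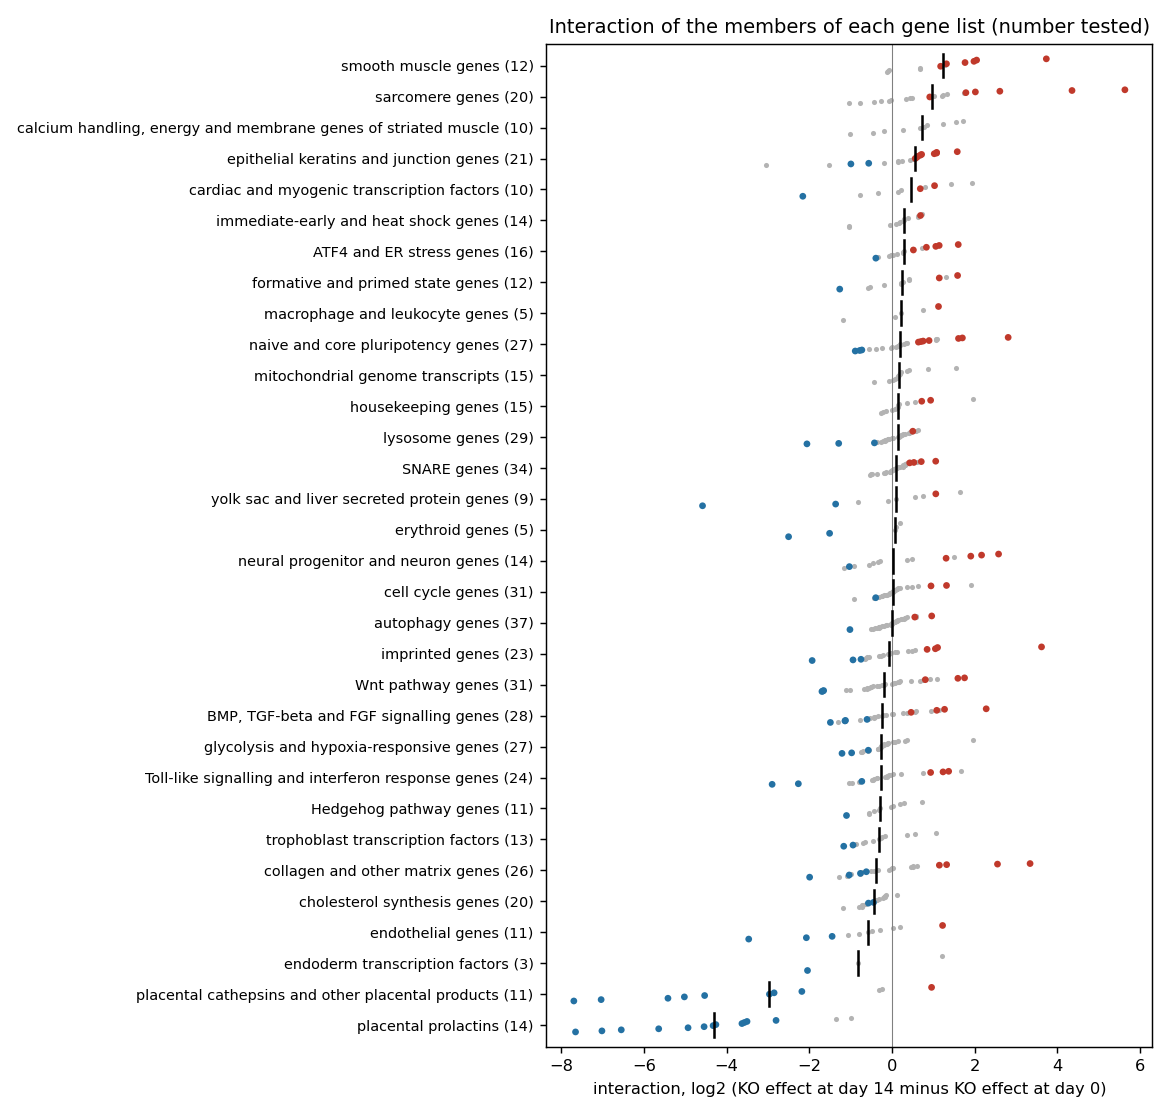
Interaction (log2, horizontal axis) of each tested member of the gene lists described here, ordered by the list median (black bar), with the number of tested members beside each name. Red and blue points were called higher and lower and grey points were not called. Placental prolactins (median −4.29) and smooth muscle genes (median 1.22) lie at the ends.

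As a contrast, genes were picked that had a large KO difference in 1 direction on both days and an interaction near 0. Their small interactions thus follow from the choice. *Klk1*, a kallikrein, measured 0.378, 0.915 and 0.857 FPKM in WT against 6.45, 7.71 and 5.57 FPKM in KO libraries at day 0, and 3.04, 1.24 and 4.55 FPKM in WT against 37.1, 30.4 and 26.1 FPKM in KO libraries at day 14 (interaction 0.42, 95% interval −0.84 to 1.69, adjusted p = 0.667). *Zscan4d* and *Zscan4-ps3*, of the family that marks the 2-cell-like state of ESCs, had interactions of −0.45 (−1.72 to 0.82) and −0.07 (−1.58 to 1.45), and *Usp17lb* and *Eif4a3l2*, of further multicopy families, of −0.30 (−1.73 to 1.14) and −0.42 (−1.66 to 0.81). At day 14 the libraries of the genotypes overlapped at *Zscan4-ps3* and *Eif4a3l2*. The intervals of these genes are wide, so an unequal effect of up to about their bounds was not detectable in these libraries. Members of the multicopy families share reads.

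The number of calls depended on which libraries entered. Without replicate 3 of day 14 WT 2521 genes were higher and 1844 lower. Without replicates 1, 2 and 3 of day 0 WT the counts were 659 and 426, 651 and 423, and 593 and 388, without replicates 1 and 3 of day 0 KO 608 and 383, and 591 and 361, and without replicate 1 of day 14 KO 679 and 421. The other libraries left the counts within 1.5 times. Of the 115 named genes that were called, 95 to 115 were still called when 1 library was left out, and none changed direction. Over the 24 alternative settings *Stx5a* and *Stx6* were called in 9, *Jun* and *Pfkp* in 10, *Cd68* in 12, *Myl1* and *Phlda2* in 13, *Ccnd2* in 15, *Esam* in 17 and *Ctsb* in 18.

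**Figure D5:**
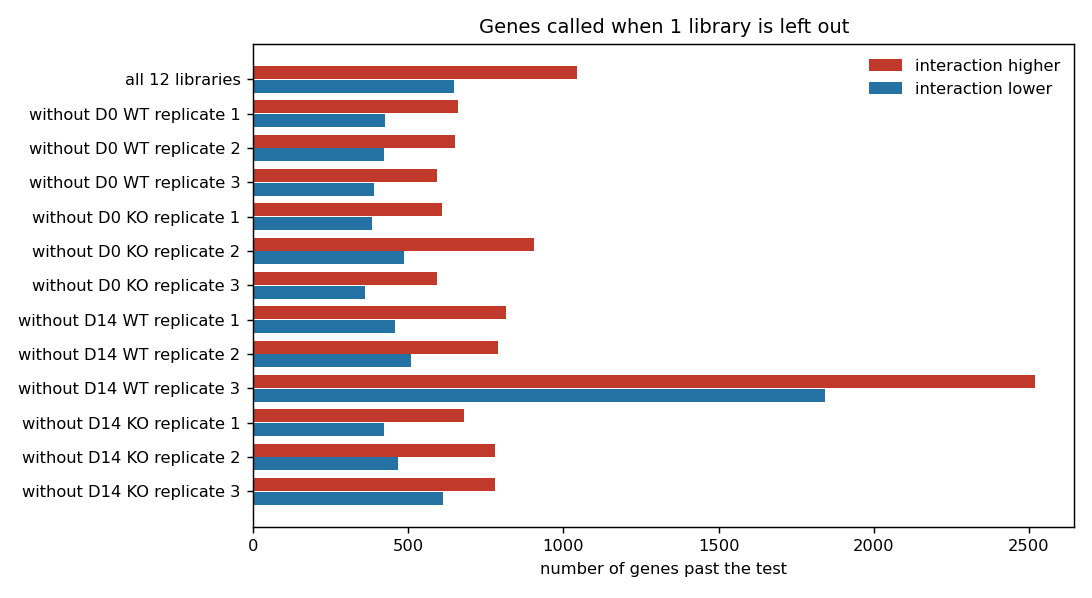
Number of genes called with a higher (red) and a lower (blue) interaction from all 12 libraries and with each library left out in turn, over the same 14110 genes. Without replicate 3 of day 14 WT the counts rise to 2521 and 1844. Leaving out any other library gives fewer calls than the 1044 and 648 of the full set.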

How the data were processed

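Poly(A) RNA of 12 libraries (3 each of WT and KO cells at day 0 and day 14) was sequenced. The authors aligned reads to the mm10 assembly (HISAT2 2.0.5), assigned them to genes (featureCounts 1.5.0-p3) and ran DESeq2, whose version is not given in the sources used here. The analysis started from the deposited FPKM tables. FPKM times gene length came out as a whole number of fragments in 100% of genes (tolerance 0.001), which gave fragments per library. The divisor behind the FPKM was 0.9985 to 1.1007 times the assigned fragments. Whether counting used strand is not stated. None of the 66 library pairs held identical values.

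The interaction was fitted with limma 3.58.1 in R 4.3.3 (4 group means, moderated with a trend) on log2(FPKM + 0.1), which understates changes of low genes, for genes of at least 1 FPKM in at least 3 of 12 libraries. Benjamini-Hochberg adjustment was over the 14110 genes, with 8 residual degrees of freedom. The 14110 genes and the 33 gene lists (828 members, 825 matched) were chosen with earlier results of these data known, and the lists have no set test. The result of 1 list is not reported here. Named genes were the 12 highest and 12 lowest called coding genes with a group mean of at least 5 FPKM, up to 6 per direction that crossed over and up to 6 with the same shift on both days, up to 4 called members per list, by adjusted p, fixed genes (*Snap29*, *Atrx*, *Snap23*, *Snap47*, *Pou5f1* and *Nanog*) and members of a list under discussion. The fit was tested on simulated data over 14110 genes with 200 changed. Promoter sequences are from RefSeq (GRCm38.p6).

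The settings varied were the pseudocount (1 and 0.01), the filter (0.1 FPKM, or none), the scaling (TPM, median ratio, quantile), voom on the recovered fragments, library weights, robust moderation, the replicate number as a replicate block, a fold threshold and leaving out each library. Group weights, each day fitted alone and list counts under 3 of the settings were chosen after seeing the data.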

Additional observations from a re-analysis of the deposited data

Results flagged for a closer look

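Each gene here differed between KO and WT in opposite directions on the days, and the difference was tested as the interaction. From lower to higher in KO went *Actc1* (5.63), *Crct1* (4.91), *Acta1* (4.35), *Acta2* (3.73), *Col5a2* (2.55) and *Zfp951* (1.62). From higher to lower went *Hs3st1* (−1.85), *Klk1b22* (−1.54), *Dkkl1* (−1.48), *Zcchc24* (−1.39), *Slc25a10* (−1.28) and *Sema3f* (−1.22). Over all genes tested, the KO effect differed between the days at 1044 genes with a higher and 648 with a lower interaction.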

How the results depend on the processing

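Against 1044 genes with a higher and 648 with a lower interaction, TPM gave 274 and 980, library weights 3740 and 2979, and a threshold of 2-fold, which is stricter by construction, 360 and 311. The library weight of replicate 3 of day 14 WT was 0.111, and those of the other libraries were 0.386 to 3.999. Leaving out 1 library gave 591 to 2521 higher and 361 to 1844 lower genes. With the replicate number as a replicate block the counts were 691 and 429. Deviations of same-numbered libraries correlated at −0.37 to 0.1 over 18 pairs, so the numbers do not pair the samples. The other settings (pseudocounts, filters, median ratio, quantile, voom, robust moderation, group weights) gave 718 to 1073 and 473 to 722. The causes were not tested. No called named gene changed direction under any of the 24 settings, and 86 (voom) to 115 of 115 were still called.

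Genes that were not called and lay near 0 changed sign. The *Atrx* interaction was −0.18 with a pseudocount of 0.01, −0.35 on TPM, −0.012 with median ratio, −1.06 with quantile scaling, −0.22 with voom and −0.14 with library weights. The *Snap23* interaction was −0.24, −0.016 and −0.023 with TPM, median ratio and quantile scaling. The *Usp17lb* interaction was 0.049 with a pseudocount of 1, 0.025 with quantile scaling and 0.11 with library weights, and the *Zscan4-ps3* interaction 0.032 with a pseudocount of 0.01, 0.37 with quantile scaling and 0.071 with voom. With 1 library left out the ranges were −0.31 to 0.19 (*Atrx*), −0.85 to 0.05 (*Eif4a3l2*), −0.079 to 0.82 (*Klk1*), −0.17 to 0.11 (*Nanog*), −0.027 to 0.059 (*Snap23*), −0.83 to 0.29 (*Usp17lb*) and −0.74 to 0.47 (*Zscan4-ps3*).

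Depth limits genes under about 0.1 FPKM, such as *Actc1* and *Crct1* in KO ESCs and *Hs3st1* in WT ESCs.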

Other observations

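The calls spread over the genome and over gene classes. Between 9.88% (chromosome 16) and 16.5% (chromosome 1) of the genes tested on an autosome or the X chromosome were called. Of 11894 protein-coding genes 1512 (12.7%) were called, of 610 lncRNA genes 50 (8.20%), and of 974 processed pseudogenes 97 (9.96%), of which 85 were higher and 12 lower. The 95 genes of cytosolic ribosomal proteins had a median interaction of 0.27 (KO effect −0.11 at day 0 and 0.16 at day 14), against 0.04 over all genes tested. On TPM the median over all genes was −0.22. Which genes the pseudogenes derive from was not tested.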
